A study of Mus musculus with 6 samples.

Results

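The Ikaros family comprises 5 genes that encode zinc finger transcription factors, Ikzf1 (Ikaros), Ikzf2 (Helios), Ikzf3 (Aiolos), Ikzf4 (Eos) and Ikzf5 (Pegasus). All 5 were taken by gene name from the 55401 genes of the deposited table. The family was selected on the measured directions of Ikzf1 and Ikzf3 between the groups, so the values of its members are a description and carry no test. Of the 5, 4 reached at least 10 normalized counts in 3 libraries, the filter used for fits, and Ikzf4 did not. The RNA came from bone marrow of 6 secondary-transplanted HoxA9/Meis1 mice, 1 library per mouse. Mice 62, 63 and 87 had received lymphoid leukaemic stem cells and gave lymphoid cells (Lym+), called Lym. Mice 56, 57 and 91 had received Lin- leukaemic stem cells and gave Lin-cKit+ progenitor cells, called Lin-. Values in 3 are given in this order of mice throughout. Both groups are HoxA9/Meis1 mice that had received leukaemic stem cells, so neither is a normal control. Age, strain, batch and the donor of each mouse are not given in the sources used here.

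Ikaros proteins bind DNA through fingers near the start of the protein and pair with each other, within and between family members, through fingers at its end. Ikaros is made by stem and progenitor cells and is needed for lymphoid development, and Aiolos is known to appear later, in committed B-cell precursors and mature B cells. Helios is known from early haematopoietic progenitors and regulatory T cells, Eos from regulatory T cells, and Pegasus is the most divergent member.

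Whether reads of the abundant Ikzf1 could have been counted under a related gene was checked on the annotated transcripts first. Among the GENCODE M21 transcripts of the 5 genes, no stretch of 38 bases, the read length, was shared by any pair. The longest stretch common to Ikzf1 and Ikzf3 was 26 bases and lies in coding sequence of the last, protein-pairing fingers. The sequences below show it in capitals with 20 bases on either side, where the genes differed at 11 positions. They are read on the transcribed strand in GRCm38, chr11:11769463-11769528 on the plus strand for Ikzf1 and chr11:98467039-98467104 on the minus strand for Ikzf3.
Ikzf1: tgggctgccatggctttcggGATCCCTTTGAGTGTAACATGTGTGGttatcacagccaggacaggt
Ikzf3: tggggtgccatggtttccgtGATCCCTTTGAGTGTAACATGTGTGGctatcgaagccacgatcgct
Ikzf2 and Ikzf4 shared at most 32 bases and the other pairs between 15 and 24. An error-free 38-base read that lies wholly within an annotated exon sequence could therefore belong to 1 member only.

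Read totals were 18537700 to 22634286 per library, and 3 reads, used here as a floor for counting error, equalled a normalized count of 2.64 to 3.36. Across all genes limma called 0 of 14273 genes at an adjusted p of 0.05 (1459 had an unadjusted p under 0.05), edgeR called 0 (1444 unadjusted) and DESeq2, run on all genes with a read under its own low-count filter, called 226 of 16268. The library of Lym mouse 87 stood apart from the other Lym libraries, and without it limma called 1366 genes. The cell labels were read against markers. Kit, the receptor in the Lin-cKit+ label, was present in both groups, at normalized counts of 18902, 12027 and 3158 (Lym) against 4953, 6066 and 3420 (Lin-). Erythroid genes summed to at most 0.884 CPM, with 6 of 8 at 0 in all libraries. The 8 neutrophil genes summed to 2374 to 2681 CPM in Lym and 3004 to 6163 CPM in Lin-. Most of that sum was Mpo, at normalized counts of 55058, 48213 and 48014 (Lym) against 57600, 118583 and 61987 (Lin-). S100a8, S100a9, Ltf, Ngp and Camp did not pass the filter. By mean, Elane was higher in Lin- and Mmp8 in Lym, both with overlapping groups. CPM are reads scaled to the library's total.

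**Figure D1:**
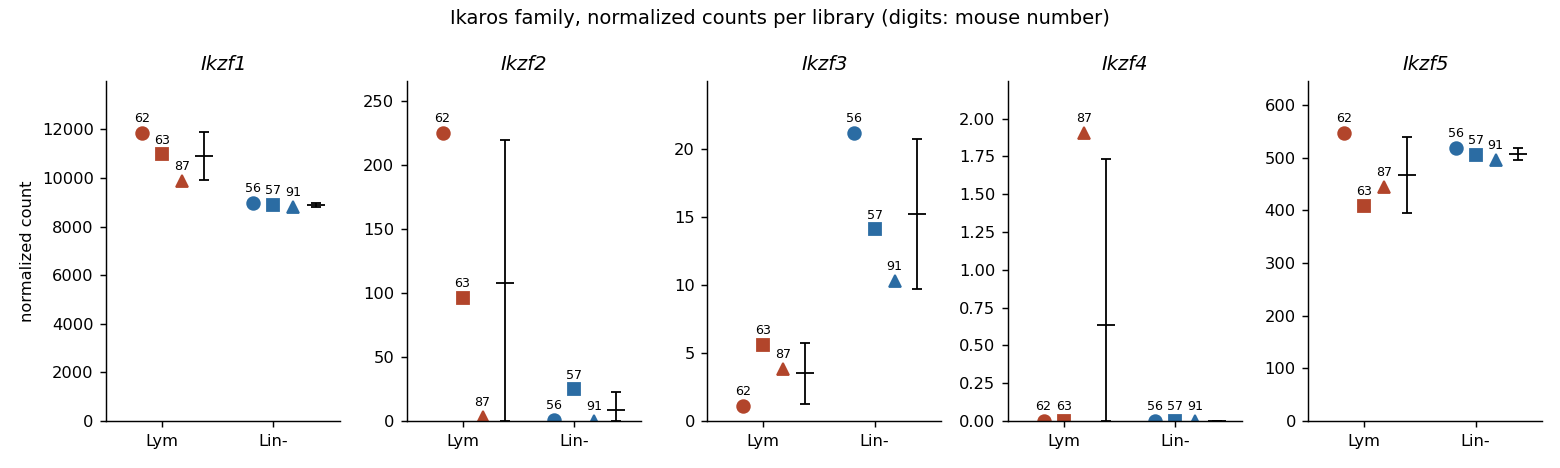
Normalized counts of the 5 Ikaros family genes in each library, on linear axes that start at 0 and differ between panels. Points are single mice labelled by number, and the black dash with its bar is the group mean ± SD (n = 3, cut at 0); Ikzf1 is higher in all 3 Lym mice and Ikzf3 higher in all 3 Lin- mice.

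Ikzf1, the founding member, made up nearly all of the family's RNA and was higher in each Lym mouse than in any Lin- mouse. The gene lies on chromosome 11, 11685003 to 11772926, plus strand. It stood at normalized counts of 11855, 10972 and 9891 (Lym) against 8965, 8879 and 8818 (Lin-). The 3 Lin- libraries lay within a narrow range, with a coefficient of variation of 0.832% against 9.02% in Lym. Group means were 10906 ± 984 in Lym and 8887 ± 74.0 in Lin- (SD, n = 3 each), a ratio of 1.23. On the log2(normalized count + 2) scale Lym exceeded Lin- by 0.29 ± 0.11 (SE). Groups were apart with Lym higher in 8.49% of the 14273 genes tested, so separation of this kind was common, and the choice of the family had used it.

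The Ikzf1 difference appeared only once reads were set against library size. The reads themselves overlapped, at 10571, 9805 and 10381 (Lym) against 10162, 10089 and 8549 (Lin-). As CPM the values ran from 487 to 564 in Lym and from 428 to 453 in Lin-, so the groups were apart by total reads as well as by the authors' size factors. Lym mouse 87 lay closest to the Lin- libraries. The highest value came from Lym mouse 62, whose library was made from 1 ng of RNA where the others had 2 ng; without that mouse the log2 difference was 0.23, and the part of input in it was not tested. The 4 genes listed for progenitors (Kit, Cd34, Flt3 and Ptprc), all of which passed the filter, also summed higher in each Lym library. The sums were 2579, 2388 and 1393 CPM against 1319, 1360 and 1317 CPM. Groups were apart with Lym higher in 2 of the 4, Cd34 and Flt3, against 8.49% of all genes tested. They overlapped in Ptprc and in Kit, which was lowest of all in Lym mouse 87. The part of these genes in the Ikzf1 difference was not tested. Counts were per gene, so the shorter Ikaros forms that lack DNA-binding fingers are not told apart from the full-length one.

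The promoter window of the Ikzf1 start annotated by RefSeq is shown because this gene carries the family's signal in all 6 libraries. It covers chr11:11685675-11685974 of GRCm38.p6, plus strand, 300 bases around the start, and is 81.3% G and C against a median of 52.7% over all windows.
Ikzf1 promoter: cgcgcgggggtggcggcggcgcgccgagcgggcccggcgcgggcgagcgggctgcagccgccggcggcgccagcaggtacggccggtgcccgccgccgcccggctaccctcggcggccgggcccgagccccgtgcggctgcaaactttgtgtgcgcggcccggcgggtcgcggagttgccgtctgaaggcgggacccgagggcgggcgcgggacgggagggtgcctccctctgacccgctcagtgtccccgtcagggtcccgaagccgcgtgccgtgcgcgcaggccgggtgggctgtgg
GGGAA, the core of the sequence that Ikaros binds, was searched on both strands (GGGAA or TTCCC). It occurs in 62.7% of 32851 RefSeq windows of this length and nowhere in this one, while a second Ikzf1 window, at chr11:11689927-11690226, holds it 2 times. The longer TGGGAA, which contains GGGAA, occurs in 25.6% of windows and in neither Ikzf1 window. These matches describe letters in the window and not sites.

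Ikzf3, known from committed B cells, was low in every library and higher in each Lin- mouse than in any Lym mouse, opposite to Ikzf1. The gene lies on chromosome 11, 98464902 to 98546031, minus strand. Normalized counts were 1.12, 5.59 and 3.81 (Lym) against 21.2, 14.1 and 10.3 (Lin-). Means were 3.51 ± 2.25 in Lym and 15.2 ± 5.51 in Lin- (SD, n = 3 each). The log2 difference, Lym minus Lin-, was -1.69 ± 0.64 (SE). Groups were apart with Lin- higher in 7.08% of genes tested, and here too the choice of the gene had used the direction.

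All of this rests on 10 reads over the 3 Lym libraries and 50 in the 3 Lin- libraries. Lym mice 62, 63 and 87 had 1, 5 and 4 reads, with exact 95% Poisson intervals of 0.0253 to 5.57, 1.62 to 11.7 and 1.09 to 10.2. Lin- mice 56, 57 and 91 had 24, 16 and 10 reads, with intervals of 15.4 to 35.7, 9.15 to 26.0 and 4.80 to 18.4. The interval of Lin- mouse 91 overlapped those of all 3 Lym libraries, and that of Lin- mouse 57 overlapped those of Lym mice 63 and 87. Overlap of intervals is not a test of a difference, and single mice were not tested against each other. These intervals hold counting error alone, because copies made by PCR could not be recognised. Ikzf3 passed the filter of 10 normalized counts in 3 libraries through its Lin- libraries alone, with Lin- mouse 91 just above the limit, and a gene that passes in this way has to be higher in Lin-.

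**Figure D2:**
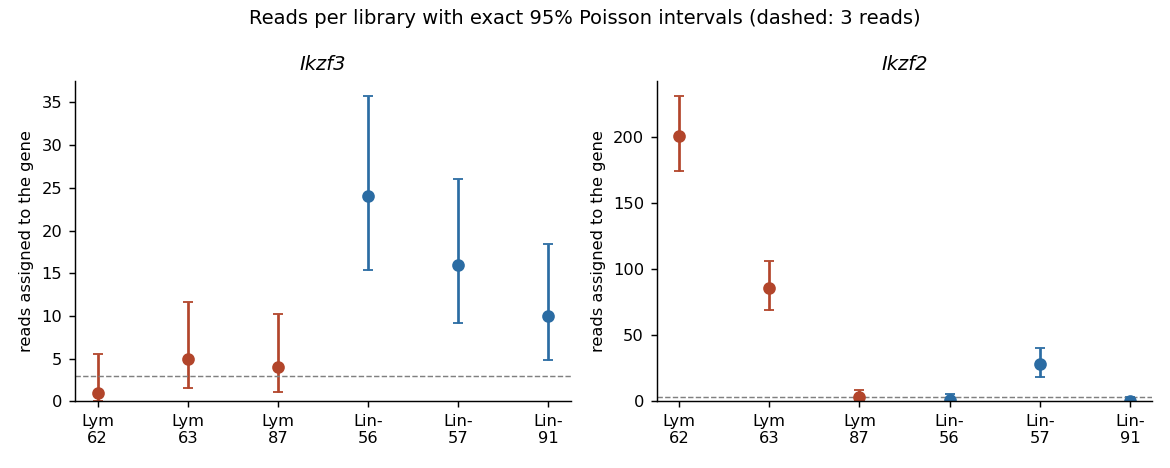
Reads assigned to Ikzf3 (left) and Ikzf2 (right) in each library with exact 95% Poisson intervals; red is Lym, blue is Lin-, and the dashed line marks 3 reads. Ikzf3 stays at or below 24 reads in every library, while Ikzf2 reaches 201 and 86 in Lym mice 62 and 63 and 28 in Lin- mouse 57.

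Markers of cells in which Aiolos is known were set beside these values. Of 8 mature B-cell genes, 2 passed the filter, and their summed level ran from 10.3 to 26.4 CPM in Lym and from 7.38 to 23.2 CPM in Lin-, overlapping. Ms4a1, which encodes the B-cell surface protein CD20, was at 0 in 5 libraries and at 2.86 normalized counts in Lym mouse 87. Of 8 T-cell genes, 1 passed, with sums of 2.54 to 5.50 CPM in Lym and 1.61 to 3.50 CPM in Lin-. Most of each sum was the gene that passed, Lat, and Cd8a was the only 1 of the 8 with no read in any library. Of 5 plasma-cell genes 1 passed, and the sums were 19.6, 5.18 and 0.797 CPM in Lym and 0.400 to 1.90 CPM in Lin-. Most of it was Mzb1, at 408, 83.9 and 5.72 in Lym, while Jchain had no read in any library and Sdc1 and Tnfrsf17 had none in Lym mouse 62. The summed monocyte genes, all 6 of which passed, were lower in Lym in 2 of 3 libraries, at 1475, 2690 and 2064 CPM against 2588 to 3036 CPM in Lin-. Their part in the Ikzf3 difference was not tested, and in bulk RNA fewer cells of a type and less RNA per cell cannot be told apart.

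Ikzf2 did not follow the groups. This gene, on chromosome 1 from 69531214 to 69687245, minus strand, was at 225, 96.2 and 2.86 (Lym) against 0.882, 24.6 and 0 (Lin-). It was thus clearly present in Lym mice 62 and 63, intermediate in Lin- mouse 57, and at or below 3 reads in the remaining 3 libraries, Lym mouse 87 among them. Its Poisson intervals were 174 to 231 reads in Lym mouse 62 and 68.8 to 106 in Lym mouse 63, against 18.6 to 40.5 in Lin- mouse 57 and at most 8.77 in Lym mouse 87. The log2 difference between the groups was 3.16 ± 1.48 (SE), with overlapping groups. It was 4.80 without Lym mouse 87, 4.31 without Lin- mouse 57 and 2.03 without Lym mouse 62. The 3 libraries at or below 3 reads include 0 reads in Lin- mouse 91, for which the floor of 3 reads allows up to 3.09 normalized counts.

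Some genes of other cell types were also highest in Lym mice 62 and 63. The 5 plasmacytoid dendritic cell genes, of which 1 passed the filter, summed to 25.2, 11.7 and 0.938 CPM across the Lym mice and to 0.574 to 1.20 CPM in Lin-. Siglech, a surface lectin that defines those cells, had normalized counts of 81.9 (Lym mouse 62) and 54.8 (Lym mouse 63) and was at 0 in the other 4 libraries, Lin- mouse 57 included. Siglech was the smaller part of the sums in Lym mice 62 and 63, most of which came from another gene of the list. Ly6d was at 1.12 in Lym mouse 62 and at 0 elsewhere, and Klk1 had no read in any library. The 6 natural killer cell genes, of which 1 passed, summed to 10.996, 3.78 and 1.17 CPM in Lym and to 0.150 to 1.07 CPM in Lin-. Most of that sum was Nkg7, a granule protein gene, at 225, 45.9 and 11.4 in Lym, while Ncr1, Klrb1c, Prf1 and Eomes had no read in Lym mouse 62. Foxp3, the defining factor of regulatory T cells, in which Helios is known, was at 0 in Lym mouse 62, the library with most Ikzf2, at 8.95 and 10.5 in Lym mice 63 and 87, and between 3.53 and 6.16 in Lin-. The part of these genes in the Ikzf2 values was not tested.

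Ikzf5 was detected in all 6 libraries, and its groups overlapped. The gene lies on chromosome 7, 131388652 to 131410521, minus strand. Its normalized counts were 547, 408 and 444 (Lym) against 519, 505 and 496 (Lin-), and the Lin- values fell inside the range of the Lym values. Means were 467 ± 72.1 in Lym and 507 ± 11.4 in Lin- (SD, n = 3 each). The log2 difference was -0.13 ± 0.17 (SE). As with Ikzf1, the Lin- libraries were closer to each other (coefficient of variation 2.25%) than the Lym libraries were (15.5%).

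The Ikzf5 promoter window from RefSeq, chr7:131410429-131410728 of GRCm38.p6 on the minus strand, is shown because it also covers the annotated start of Acadsb, an acyl-CoA dehydrogenase gene that runs the other way from a point 80 bases off. GGGAA, in capitals, occurs once in it and TGGGAA does not occur.
Ikzf5 promoter: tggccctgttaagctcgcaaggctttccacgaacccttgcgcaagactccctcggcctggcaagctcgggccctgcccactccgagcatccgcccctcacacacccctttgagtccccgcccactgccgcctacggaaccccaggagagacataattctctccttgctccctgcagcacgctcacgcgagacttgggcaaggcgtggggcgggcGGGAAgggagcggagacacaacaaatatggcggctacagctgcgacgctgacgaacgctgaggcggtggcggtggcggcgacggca
Acadsb was at 768, 685 and 618 (Lym) against 1135, 809 and 750 (Lin-). The groups overlapped here as they did for Ikzf5, but the highest library differed, Lin- mouse 56 for Acadsb and Lym mouse 62 for Ikzf5. Pstk, a selenocysteine synthesis kinase gene, overlaps the end of Ikzf5 on the opposite strand and was at 79.6, 149 and 173 (Lym) against 206, 279 and 174 (Lin-). Use of the strand in counting is not given in the sources used here, so reads from that overlap are uncertain.

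Ikzf4 was not detected beyond the floor. This gene, placed by the deposited table on chromosome 10 from 128630843 to 128669358, minus strand, had no read in 5 libraries and 2 reads in Lym mouse 87. No fold was computed. Rps26, a ribosomal protein gene 4096 bases away, stood at 9586 to 12338 normalized counts over the 6 libraries, so the lack of reads was not shared by the neighbouring gene.

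**Figure D3:**
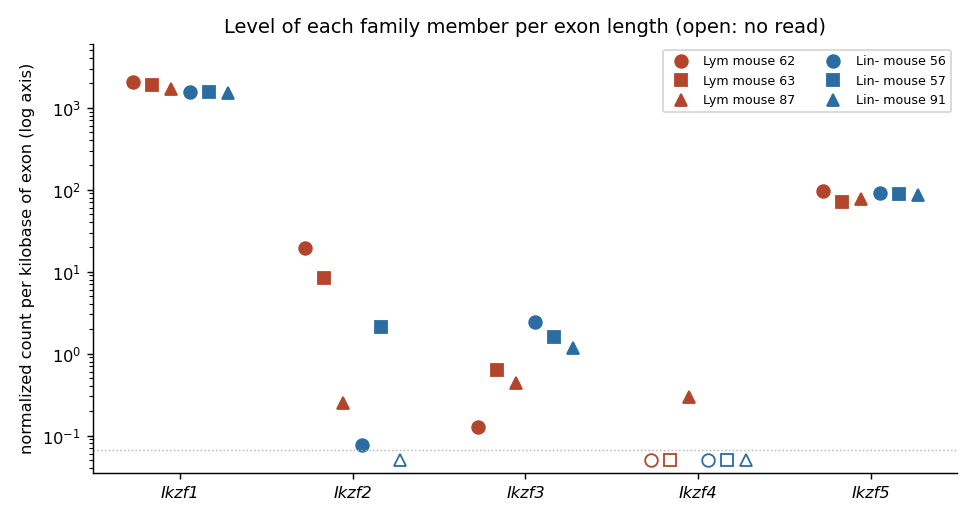
Level of each family member as normalized count per kilobase of exon on a log axis, one point per library; open symbols below the dotted line mark libraries with no read. Ikzf1 lies between 1526 and 2052 in all 6 libraries and Ikzf5 between 71.4 and 95.7, while Ikzf2 reaches 19.4 at most, and Ikzf3 and Ikzf4 stay at or below 2.42.

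Per exon length, the family ranked Ikzf1, then Ikzf5, in all 6 libraries. Mean levels over the libraries were 1713 normalized counts per kilobase for Ikzf1, 85.1 for Ikzf5, 5.02 for Ikzf2, 1.07 for Ikzf3 and 0.0492 for Ikzf4. Among the 14273 genes tested, the Ikzf1 level stood at the 97.3 percentile, that of Ikzf5 at the 45.2 percentile and that of Ikzf2 at the 4.06 percentile. Ikzf1 supplied 94.7%, 95.9% and 95.6% of the family's length-scaled signal (Lym) against 94.3%, 94.4% and 94.6% (Lin-). The order of Ikzf2 and Ikzf3 changed between libraries. In 3 libraries Ikzf2 exceeded Ikzf3, those of Lym mouse 62, Lym mouse 63 and Lin- mouse 57, and Ikzf3 exceeded Ikzf2 in Lym mouse 87 and Lin- mice 56 and 91. In Lym mouse 87 the levels of Ikzf2, Ikzf3 and Ikzf4 rested on 3, 4 and 2 reads and their order was not detectable at that depth.

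**Figure D4:**
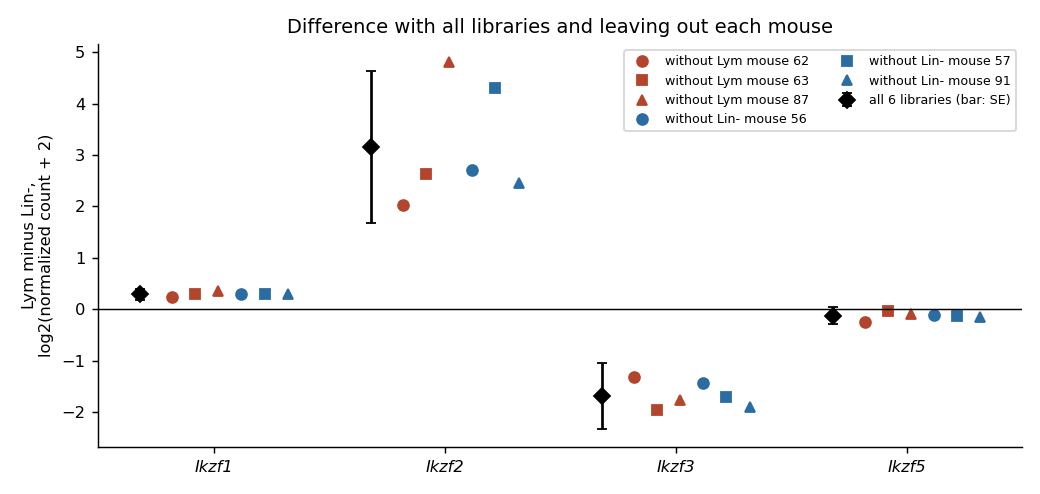
Lym minus Lin- difference of log2(normalized count + 2) for the 4 members that passed the low-value filter, with all 6 libraries (black, bar is the SE) and with each mouse left out in turn. Ikzf1 stays between 0.23 and 0.36 and Ikzf3 between -1.96 and -1.32, while Ikzf2 runs from 2.03 to 4.80.

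Leaving out single mice kept the sign of the difference in all 4 members that were fitted. For Ikzf1 and Ikzf3, whose groups were apart, no other outcome was possible. The authors' deposited table lists log2 fold changes, turned here to Lym minus Lin-, of 0.28 ± 0.145 (SE) for Ikzf1, -0.43 ± 0.240 for Ikzf3, 0.18 ± 0.145 for Ikzf2 and -0.10 ± 0.189 for Ikzf5. These are shrunken toward 0: DESeq2 with a prior gave the same values to within 0.00021 over 31604 genes, and without a prior gave 3.67 for Ikzf2 and -2.11 for Ikzf3.

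Genes near the members differed from them in several cases. Fignl1, a repair gene 14505 bases beyond Ikzf1, was at 886, 774 and 1108 (Lym) against 1344, 992 and 1136 (Lin-), with a log2 difference of -0.33 and overlapping groups. The transcript Gm11999 overlaps the start of Ikzf1 on the opposite strand and did not pass the filter. It was at 10.1, 7.83 and 4.76 (Lym) against 3.53, 0.880 and 0 (Lin-), higher in each Lym mouse as Ikzf1 was. Within Ikzf3, on the annotation, lies Gm25106, which reached at most 2.86. On either side of Ikzf3, Grb7, a signalling adaptor gene, had no read, and Zpbp2, a sperm protein gene, was at 0, 0 and 0.953 (Lym) against 4.41, 1.76 and 1.03 (Lin-). The nearest coding genes of Ikzf2, Erbb4 and Spag16, reached at most 5.59 and 1.91. Of the gene models overlapping Ikzf2, Gm28112 reached at most 4.49, in Lym mouse 62, and the other 2 had no read.

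Pearson correlations of log2 values over the 6 libraries, given as a description because the libraries share groups and depth, showed which genes varied most like each member among about 9150 named genes. Closest to Ikzf1 were Etv6, an ETS family repressor, at 0.998, Foxo3, a forkhead factor, at 0.997 and Fhl3, a LIM domain protein, at 0.996. Etv6 was at 12234, 10766 and 8799 (Lym) against 7627, 7313 and 7147 (Lin-). With 235 genes at 0.95 or above, such likeness to Ikzf1 was common. Closest to Ikzf2 were Pear1, an endothelial and platelet receptor, at 0.998, Lpcat2, a phospholipid acyltransferase, at 0.997 and Mkln1 at 0.997. Lpcat2 repeated the split over libraries, at 770, 318 and 3.81 (Lym) against 1.76, 36.1 and 0 (Lin-).

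For Ikzf3, 47 genes stood at 0.95 or above. It had only 1 to 24 reads per library, and counting error tends to lower such correlations. The 47 can therefore not be set against the 235 of Ikzf1. Closest to Ikzf3 were D1Ertd622e at 0.993, Iars2, a mitochondrial isoleucyl-tRNA synthetase, at 0.989 and Igf2r, the mannose 6-phosphate receptor, at 0.988. Igf2r stood at 416, 859 and 656 (Lym) against 3721, 2557 and 2068 (Lin-), so it shared the order of the libraries at a far higher count than Ikzf3. Ikzf5 was most like Hax1 (0.981), Dhrs7b (0.979) and Atpaf1 (0.971), and 13 genes reached 0.95. Between members, Ikzf1 and Ikzf3 correlated at -0.88 and Ikzf1 and Ikzf2 at 0.83. The family had been chosen for the opposite directions of Ikzf1 and Ikzf3 in these libraries. A negative value for that pair was thus largely set by the choice.

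**Figure D5:**
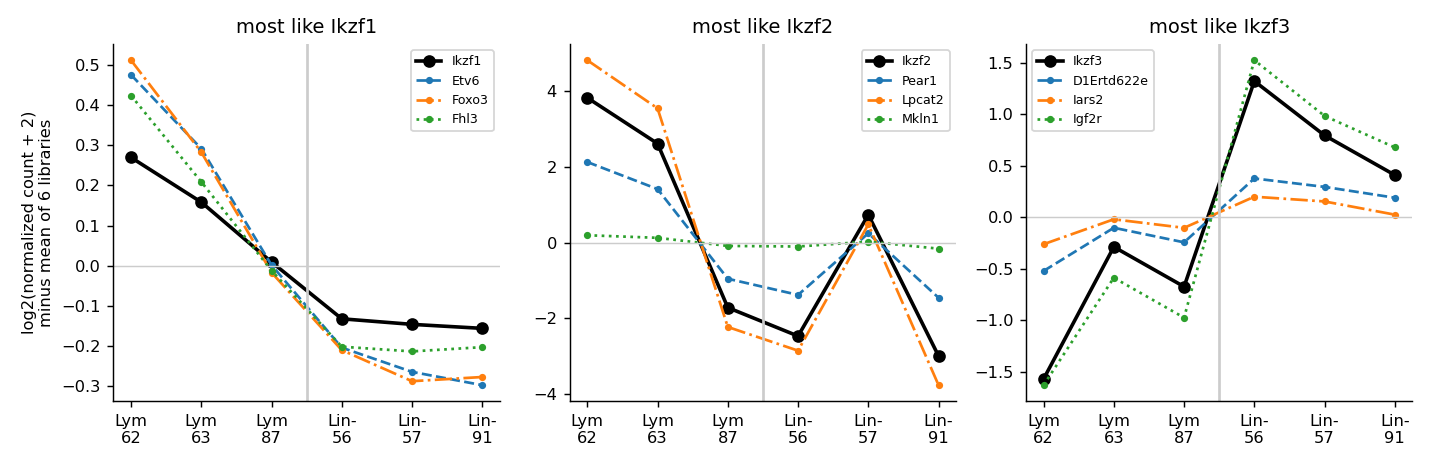
Change of Ikzf1, Ikzf2 and Ikzf3 (black) from their own mean over the 6 libraries, on the log2(normalized count + 2) scale, with the 3 genes most like each; lines join libraries only to guide the eye. Ikzf2 and its like genes are high in Lym mice 62 and 63 and raised in Lin- mouse 57, while Ikzf3 and its like genes are low in all 3 Lym mice.

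Ikaros proteins are known to work with the NuRD chromatin remodelling complex and other corepressors. All 18 genes of that list passed the filter, 12 with a higher mean in Lym and 6 with a lower one (median log2 difference 0.05, against -0.01 over all genes tested). Limma called 0 of them and so did DESeq2, where 1.39% of genes were called. Groups were apart with Lym higher in 4 of the 18, against 8.49% of all genes tested. Chd4, the complex's main remodelling ATPase and the member with most counts, was at 26163, 26917 and 25870 (Lym) against 21671, 18906 and 19746 (Lin-), a log2 difference of 0.39 ± 0.11 (SE, limma adjusted p = 0.420). Mta3, another subunit, was at 1190, 841 and 692 against 477, 652 and 537, a log2 difference of 0.68 ± 0.22 (limma adjusted p = 0.441). Sin3a and Mta1 were the other pair, with differences of 0.26 and 0.22. Without Lym mouse 87 limma called 2 of the 18, Chd3 and Mta3, and DESeq2 called Chd4 and Mta3, all higher in Lym, where 9.57% and 12.9% of all genes were called.

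Cereblon, the ligase subunit through which drugs mark human Ikaros and Aiolos for breakdown, was measured with its partners. None of the 5 genes was called by limma, which called 0% of all genes, or by DESeq2, which called 1.39%. Of the 5, 2 had a higher and 3 a lower mean in Lym, and the median log2 difference was -0.05. Crbn was at 884, 818 and 563 (Lym) against 641, 799 and 646 (Lin-), overlapping. Ddb1 had the most counts, at 9228, 10316 and 12075 (Lym) against 11849, 10317 and 10397 (Lin-). Rbx1, the ring subunit, was lower in each Lym mouse (492 to 530) than in any Lin- mouse (565 to 665), with a log2 difference of -0.30 ± 0.15 (SE, limma adjusted p = 0.524). It was the only 1 of the 5 with groups apart, against 7.08% of all genes tested with groups apart and Lin- higher.

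Of 24 genes of B-cell precursors, the setting in which Ikaros and Aiolos are best known, 12 passed the filter. In 11 of these the mean of the log2 values was higher in Lym, against 48.7% of all genes tested. The median log2 difference of the 12 was 0.47, against -0.01 over all genes tested. By mean normalized count Ccnd3, a D cyclin, was at 2105 in Lym and 2108 in Lin-, so 1 of the 11 differed in direction between these means. Limma called 0 of the 12. DESeq2 called 5 of the 24, all higher in Lym (Il7r, Rag2, Ebf1, Dntt and Ighm), where 1.14% of genes were called in that direction, and none higher in Lin- (0.246%). These shares are of genes with a DESeq2 adjusted p, which some of the 24, such as Rag1 and Pax5, lacked. Ebf1 and Dntt had not passed the limma filter, and Dntt had no read in any Lin- library. In Lin-, Ebf1 reached at most 1.76 normalized counts and Il7r at most 4.13. With so few reads in Lin-, these 3 genes could be called only as higher in Lym. The share of 1.14% is therefore not a like background for them. Ccnd2, another D cyclin, was at 5213, 2498 and 1476 (Lym) against 1337, 1251 and 1323 (Lin-) (limma adjusted p = 0.452). Rag2, a recombinase subunit, was at 361, 120 and 27.6 against 19.4, 38.7 and 13.4, with a DESeq2 log2 difference of 2.82 ± 0.65 (SE, adjusted p = 0.00383). Blnk, a signalling adaptor of B-cell precursors, reached at most 3.36. Il7r, the interleukin 7 receptor chain of lymphoid precursors, was at 424, 82.8 and 14.3 (Lym) against 2.65, 3.52 and 4.13 (Lin-), with DESeq2 adjusted p = 0.00276. Ighm, the mu heavy chain gene, was at 9260, 8540 and 4798 (Lym) against 4471, 4179 and 4456 (Lin-). Il7r, 1 of the 11, passed the filter through its Lym libraries alone. A gene that passes in this way has to be above every Lin- mouse. Il7r and Ighm were both lowest among the Lym mice in mouse 87, yet still above every Lin- mouse. Without Lym mouse 87 DESeq2 called 11 of the 24 as higher in Lym, where 7.5% of genes were called in that direction, and none as higher in Lin- (5.36%). Here too, those of the 11 with few or no reads in Lin- could be called in that direction only.

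The last list held 12 genes of Notch signalling and cell adhesion, which Ikaros is known to restrain in lymphoid precursors. Of its 6 members above the filter 3 had a higher and 3 a lower mean in Lym (median log2 difference 0.0059), and neither limma (0% of all genes) nor DESeq2 (1.39%) called any. Notch1 was at 5379, 6573 and 4389 (Lym) against 3561, 3593 and 3878 (Lin-), with groups apart and a log2 difference of 0.55 ± 0.15 (SE, limma adjusted p = 0.420). Ctnna1, an adherens junction gene, was the other whose groups were apart with Lym higher, by 0.32 on the log2 scale, so that 2 of the 6 were apart in this direction against 8.49% of all genes tested. Hes1, a common Notch target, had reads only in Lym mouse 87, at 1.91, which is below the floor of 3 reads. Without Lym mouse 87 limma called Notch1 as higher and Itga6, an integrin subunit gene, as lower in Lym, where it called 5.48% of genes higher in Lym and 4.09% higher in Lin-. DESeq2 without that mouse called the same 2, against 12.9% of all genes.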

How the data were processed

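Tools named in the submitters' processing notes are STAR 2.6.1d, Trim Galore 0.6.4, featureCounts 1.6.4, bcl2fastq and DESeq2, with build GRCm38.p6. What the authors deposited for each library is a normalized signal, that is gene counts over a size factor. All values up to 10000 were whole multiples of a library's step (tolerance 0.01), so reads were recovered. Per the file headers, the authors also give a log2 fold change with its standard error, a Wald score and p-values; the p-values were not used. Per the labels' protocols, a stranded kit and 12 PCR cycles were used on 2 ng of RNA, or 1 ng for Lym mouse 62. The 3 Lym and 3 Lin- mice were grouped by title, 1 library each, so the spread is between animals.

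Differences are limma 3.58.1 (R 4.3.3) coefficients with trend on log2(normalized count + 2), for the 14273 genes that reached 10 normalized counts in 3 libraries, and adjusted p-values are Benjamini-Hochberg over all of them. DESeq2 1.42.0 and edgeR 4.0.16 were run on recovered reads, DESeq2 on all genes with a read and its own independent filtering, and all fits were tested on simulated data. Python 3.11.15 made the figures. Ikzf4 has another version in GENCODE M21 than in the table, and the other 4 identifiers and positions matched. RefSeq promoter windows (GRCm38.p6) were matched for Ikzf1 and Ikzf5. Members, gene lists and tests were chosen with earlier results of these data known. Named were the members, their nearest coding neighbours, the 3 most correlated genes averaging 5 CPM or more (unnamed gene models left out), and, of each list, up to 4 called genes or else the 2 most abundant and up to 4 with groups apart. Genes overlapping a member, Crbn, Chd3, Ccnd3, Itga6, Blnk and Hes1 and the marker genes were picked with their values in view, and some genes under the rule are not described. Alternatives covered the scaling, pseudocount, filter, tool, exon length and each mouse. The values of 1 further marker gene are not reported here.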

Additional observations from a re-analysis of the deposited data

How the results depend on the processing

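No member's difference changed sign under any of 15 alternatives. For Ikzf1 and Ikzf3, whose groups were apart, leaving out a mouse or changing the pseudocount could not change the sign. Ikzf1 ran from 0.23 to 0.36, Ikzf2 from 2.03 to 4.80, Ikzf3 from -2.18 to -1.003 and Ikzf5 from -0.25 to -0.04 (log2, Lym minus Lin-). With a pseudocount of 8, which by construction shrinks low values, the Ikzf3 difference was -1.003. Leaving out each mouse gave 0.23 to 0.36 for Ikzf1, 2.03 to 4.80 for Ikzf2, -1.96 to -1.32 for Ikzf3 and -0.25 to -0.04 for Ikzf5. With the longest annotated transcript in place of exon length, the Ikzf1 share was 94.7% in Lym and 93.6% in Lin-, against 95.4% and 94.4%. The number of genes called by limma, 0, was 1 with a pseudocount of 8, 5 without the low-value filter, 226 with DESeq2 on all genes with a read, 186 with DESeq2 on the genes limma tested, and 0 to 1366 when 1 mouse was left out, 1366 being without Lym mouse 87 and 1 without Lin- mouse 91. DESeq2 without Lym mouse 87 called 2074; this alternative, DESeq2 on the genes limma tested and scaling by total reads were added after seeing the data. The cause of these changes was not tested. Ikzf3 and Ikzf4 are limited by depth, and Ikzf4 was not fitted under the filter. No paired analysis was possible because the mouse numbers of the groups are all different.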

Other observations

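Chd3, a remodelling ATPase that can replace Chd4 in the NuRD complex, varied far more than the other corepressor genes and was noticed after its values were seen. Its normalized counts were 2902, 2057 and 26.7 (Lym) against 928, 798 and 162 (Lin-). Lym mice 62 and 63 were the highest libraries and Lym mouse 87 the lowest of all 6, so the groups overlapped (log2 difference 0.16 ± 1.58 SE, limma adjusted p = 0.978). Chd4 stayed between 18906 and 26917 in the same libraries.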
